A study of Mus musculus with 6 samples.

Results

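The libraries described here are those of lncSync knockout heart cardiomyocytes, 1 from embryos at e13.5 (named by the days of gestation) and 2 from adults. They make up 3 of the 6 small RNA libraries of a study that set lncSync-null mice, which lack a long non-coding RNA, beside wild-type mice at the same stages. All mice were C57BL/6, and the knockouts were LncSync-/-. The labels give no age for the adults, no number of hearts pooled per library, and no method of isolating cells labelled cardiomyocyte from source tissue labelled heart. Nor do they state whether different animals gave the adult replicates, so p-values reflect only how far those libraries spread, a spread that could be technical. Mature miRNA rows were used, 1974 of 3208 in the count table, and 22 rows that held the same reads as another were merged, which left 1952 miRNAs.

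A microRNA (miRNA) is cut from a hairpin precursor, whose 5p and 3p arms can each give a mature strand. The strand guides a silencing complex to messenger RNAs, chiefly by pairing of its seed, bases 2 to 8, so miRNAs with the same seed share many targets. In the heart, miR-1 and miR-133 are the classical muscle miRNAs, miR-208a, miR-208b and miR-499 lie in introns of myosin heavy chain genes, and miR-29 represses collagen genes. Imprinted clusters such as Dlk1-Dio3 are known for high expression in embryos and placenta.

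The e13.5 knockout library held 2671957 mature counts, and the adult knockout libraries held 14347091 (replicate 1) and 17608586 (replicate 2). A miRNA at 0 counts could thus hold up to 3 counts, or 0.681, 0.208 and 0.282 scaled CPM (counts scaled to a common library size after TMM) in the same order. All levels below are scaled CPM unless stated otherwise. At least 1 count was found for 810, 618 and 825 miRNAs, and 891 of the 1952 had none in any of the 3 libraries. Intervals on shares and ratios are 95% intervals and cover counting error only. The lncSync transcript is not measured by a miRNA table.

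The sequences that the results turn on are shown with the seed in capitals, 5′ to 3′, as RefSeq gives them for GRCm38.p6 (mm10). A sequence was kept for 547 of the 637 tested miRNAs. The first group shares the seed AGCACCA and the second AGCAGCA, and the arms shown in both groups were far lower at e13.5 than in adults.
miR-29a-3p: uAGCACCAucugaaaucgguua
miR-29b-3p: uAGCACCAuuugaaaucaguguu
miR-29c-3p: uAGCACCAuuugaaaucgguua
miR-16-5p: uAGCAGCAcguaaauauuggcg
miR-15a-5p: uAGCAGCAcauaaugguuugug
miR-195a-5p: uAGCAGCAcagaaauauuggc
miR-497a-5p: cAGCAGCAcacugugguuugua
The next set are myosin-intron miRNAs, shown because 2 of them share a seed and differed between stages in opposite directions.
miR-208a-3p: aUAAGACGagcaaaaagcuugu
miR-208b-3p: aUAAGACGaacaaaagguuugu
miR-499-5p: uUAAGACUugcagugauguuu
The third set was higher at e13.5. It holds miR-21a-5p, imprinted miRNAs of chromosomes 12 and 7 whose seeds all differ, and pairs from the miR-200 and miR-302 clusters that share one.
miR-21a-5p: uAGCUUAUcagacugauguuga
miR-541-5p: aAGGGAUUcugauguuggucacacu
miR-127-3p: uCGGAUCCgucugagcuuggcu
miR-370-3p: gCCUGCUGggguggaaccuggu
miR-483-5p: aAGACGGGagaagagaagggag
miR-483-3p: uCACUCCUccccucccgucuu
miR-200b-3p: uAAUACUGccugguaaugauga
miR-429-3p: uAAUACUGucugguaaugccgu
miR-302b-3p: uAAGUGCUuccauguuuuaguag
miR-302d-3p: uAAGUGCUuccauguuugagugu
The last set are the arms of 3 of the 4 hairpins whose arms were called in opposite directions.
miR-20a-5p: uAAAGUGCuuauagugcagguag
miR-20a-3p: aCUGCAUUacgagcacuuaaag
miR-455-5p: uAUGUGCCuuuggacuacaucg
miR-455-3p: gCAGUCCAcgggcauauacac
miR-542-5p: cUCGGGGAucaucaugucacga
miR-542-3p: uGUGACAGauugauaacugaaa

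The leading miRNAs of the stages overlapped in part. At e13.5, miR-143-3p (smooth muscle and fibroblasts) took 21.1% of counts (Wilson interval 21.02 to 21.12), and miR-21a-5p, a miRNA raised in cardiac fibroblasts under stress, took 18.99% (18.95 to 19.04). miR-143-3p was also abundant in the adults, at 7.83% and 9.33%. In the adults, miR-133a-3p took 15.2% ± 4.34 (SD, n = 2) and miR-1a-3p 16.9% ± 12.4 (SD, n = 2). The miR-133a-3p share at e13.5 was 0.148% (0.1434 to 0.1526), below both adult libraries, at 18.3% and 12.2%. The miR-1a-3p share at e13.5 was 9.48% (9.450 to 9.520) and lay between the adult libraries, at 8.15% and 25.6%. The 10 most abundant miRNAs of each library held 71.0%, 61.2% and 72.4% of its counts. The plot of the most abundant miRNAs shows each library.

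**Figure D1:**
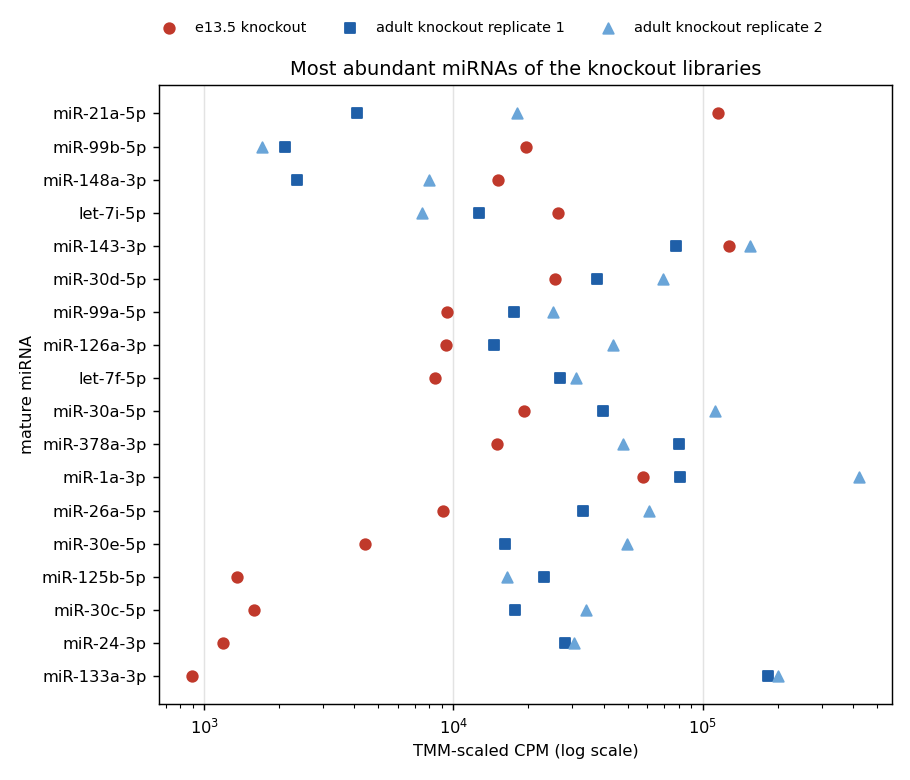
Scaled CPM (log axis) of the miRNAs that stand among the 10 most abundant in any knockout library, with 1 point per library (e13.5, adult replicate 1, adult replicate 2). miR-21a-5p at e13.5 (115201) lies above both adults (4099 and 18062), and miR-133a-3p at e13.5 (897) lies far below both (182249 and 201173).

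The stage comparison asked which mature miRNAs differed between e13.5 and adult knockout cardiomyocytes. Of 637 miRNAs tested, 231 passed at an adjusted p of 0.05 (edgeR quasi-likelihood test, Benjamini-Hochberg), which is 36.3%. Of these, 144 were higher at e13.5 (22.6%) and 87 were lower (13.7%), and these percentages are the background against which the counts below are read. The median log2 fold (e13.5 over adult) of all tested miRNAs was −0.32, and 221 of the 231 differed between stages by more than the adult libraries differed from each other. In the plot of levels at both stages the called miRNAs lie on both sides of the diagonal.

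**Figure D2:**
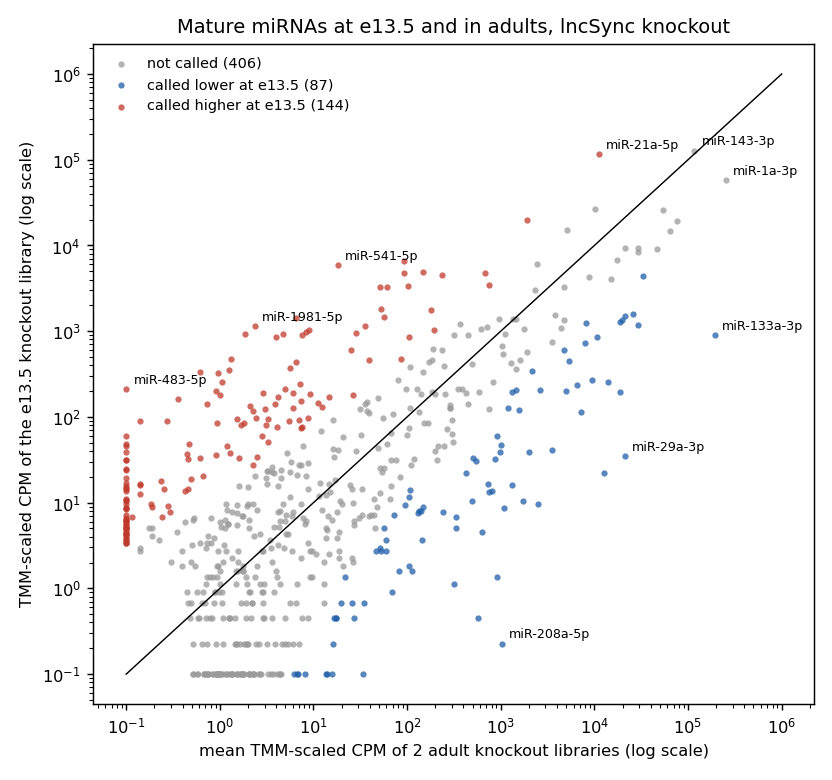
Each point is 1 of the 637 tested miRNAs, with the mean scaled CPM of the 2 adult knockout libraries on the x axis and the scaled CPM of the e13.5 knockout library on the y axis, both log axes with lower values and 0 counts drawn at 0.1. Colours mark the 144 miRNAs called higher at e13.5, the 87 called lower and the rest.

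The fit has 1 residual degree of freedom, from the adult pair, and the lone e13.5 library is assumed to vary like that pair. Stage cannot be told apart from dissection, cell isolation or library batch, and in bulk RNA fewer cells of a type and less RNA per cell cannot be told apart. A miRNA with under 10 counts in each adult library could pass the filter on low counts only through e13.5, and of 79 such miRNAs 62 were called higher. In the shallower e13.5 library 191 tested miRNAs had under 10 counts, and 25 of these were called lower. Scaling moved the whole distribution: the median log2 fold was 0.00 with median-of-ratios factors, 0.74 with library totals and −0.77 with upper-quartile factors. The share of calls that were higher was 62.3% with TMM, 65.6% with median of ratios, 81.4% with library totals (153 higher, 35 lower) and 55.4% with upper quartile (133 higher, 107 lower). Under all 4 scalings 168 miRNAs were called, 133 of the 144 higher and 35 of the 87 lower, and no called miRNA changed sign.

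The adult knockout libraries differed from each other as well. Over the 637 miRNAs their median absolute log2 difference was 0.87, against 2.998 between the stages, and 117 were at least 4-fold apart. Among 145 miRNAs with an adult mean of at least 100 scaled CPM, 12 were at least 4-fold apart. The difference followed base composition: the Spearman correlation of the log2 difference, replicate 1 minus replicate 2, with GC content was 0.37 over the 547 miRNAs with a sequence, and it was 0.04 for the stage fold. These are descriptions across miRNAs, which are not independent replicates. The median difference between the adults ran from −0.71 in miRNAs of at most 35% GC to 0.68 above 60% GC. The part of GC content in the results was not tested beyond a fit with GC offsets, which called 256 miRNAs, 228 of them among the 231.

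**Figure D3:**
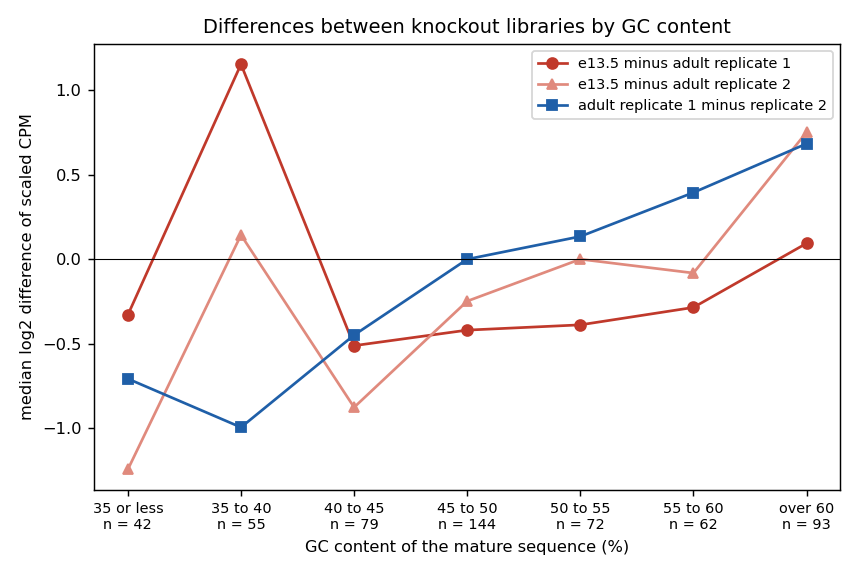
Median log2 difference of scaled CPM by GC content of the mature sequence in 7 bins, for e13.5 against each adult knockout library and for adult replicate 1 minus adult replicate 2. The line for the adult pair goes from −0.71 in the lowest bin to 0.68 in the highest.

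Since no test was possible with either adult library left out, the comparison was also described by size. Against each of the 2 adult libraries, 167 miRNAs were at least 4-fold higher at e13.5 and 145 at least 4-fold lower, together 49.0% of those tested. The values against each adult library are given below where they differ. The members of 29 lists of families, clusters and cell type markers follow, and the plot of the lists shows every tested arm.

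**Figure D4:**
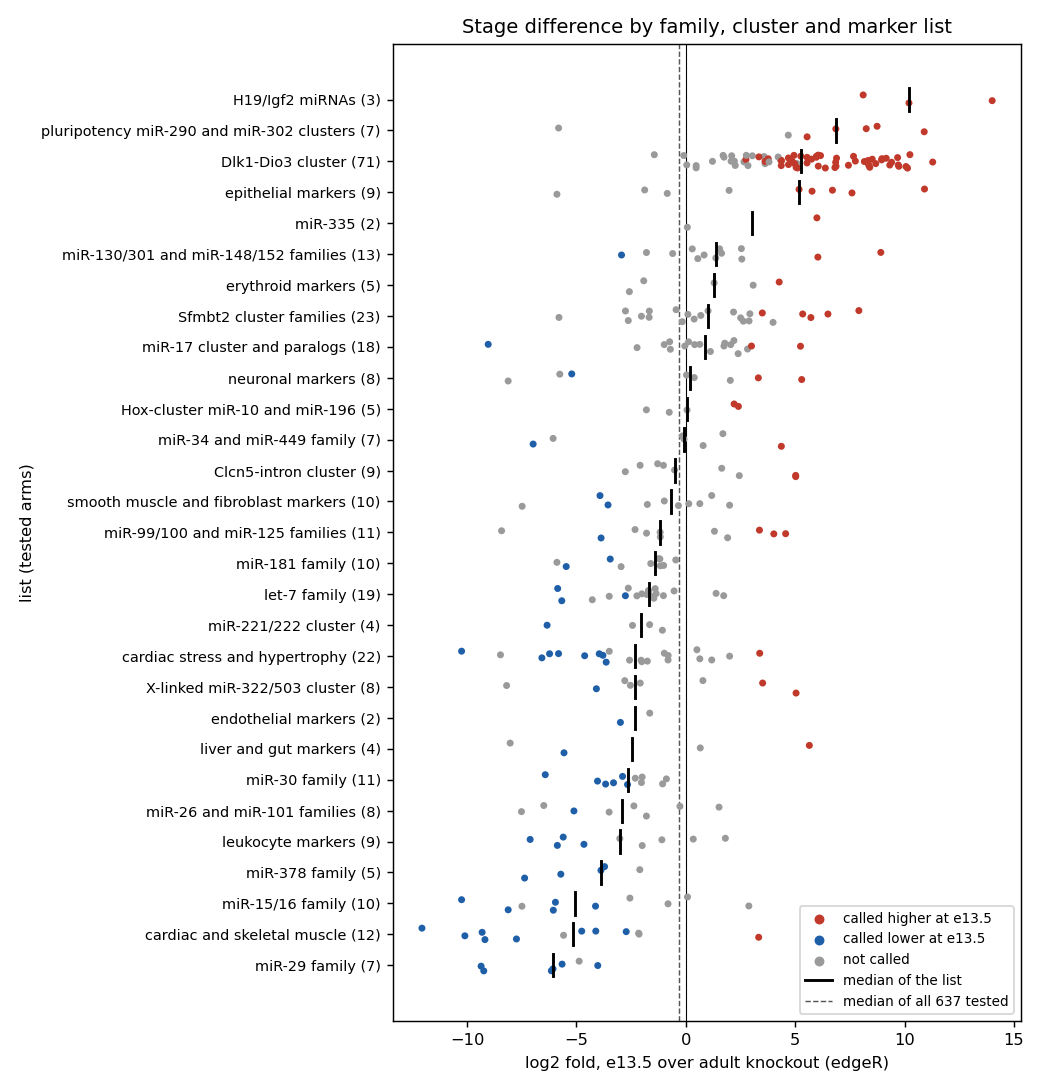
Log2 fold (e13.5 over adult knockout, edgeR) of each tested arm, by list, with the number of tested arms in brackets, coloured by call, and a bar at the median of each list. The dashed line is the median of all 637 tested miRNAs (−0.32), and the Dlk1-Dio3 arms (median 5.26) and the miR-29 arms (median −6.07) lie on opposite sides of it.

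Cardiac and skeletal muscle miRNAs were mostly lower at e13.5. Of 12 tested arms 8 fell below the adults and 1 was higher, with a median log2 fold of −5.17 (−3.88 with the 3 arms that have a stage at 0 counts set to their bound). At e13.5, 4 of the 12 arms had under 10 counts, too few to enter the test without adult counts. Among these were miR-208a-5p, miR-1a-1-5p and miR-499-3p, all called lower. With library totals 4 of the lower calls were kept. The list held 9.86% of counts at e13.5 (Wilson interval 9.825 to 9.897) and 33.9% ± 8.03 (SD, n = 2) in adults. Of the labelled cell type's defining miRNAs, miR-1a-3p, miR-133a-3p, miR-133b-3p, miR-208a-3p, miR-208b-3p and miR-499-5p had counts in all 3 libraries.

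miR-133a-3p, which restrains proliferation of cardiomyocytes, stood at 897 at e13.5 and at 182249 and 201173 in the adults. The e13.5 value lay below both adults, which were close to each other, and the log2 fold was −7.74, with an SE of 1.52 (edgeR adjusted p = 5.96e-06). miR-133b-3p, its near-copy from another locus, stood at 22.02 against 11288 and 14269 (log2 fold −9.18, SE 1.56, edgeR adjusted p = 1.47e-07). Their passenger strand miR-133a-5p was lower as well, at 32.0 against 719 and 1012. miR-1a-3p did not pass: it stood at 57526 at e13.5 and at 81208 and 424249 in the adults (log2 fold −2.14, SE 1.12, edgeR adjusted p = 0.128). Its gap between the adults exceeded that between e13.5 and replicate 1, with log2 folds of −0.50 and −2.88 against the separate replicates. miR-206-3p, the skeletal-muscle relative of miR-1, stood at 6.13 against 11.04 and 43.6 and did not pass either.

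The myosin-intron miRNAs differed in opposite directions. miR-208a lies in the gene of the adult heavy chain of the mouse heart, and miR-208b in that of the fetal chain. miR-208a-3p stood at 7.49 at e13.5 and at 116 and 144 in the adults (log2 fold −4.11, SE 1.31, edgeR adjusted p = 0.00697). miR-208b-3p stood at 76.5 against 1.32 and 13.9 (log2 fold 3.33, SE 1.14, edgeR adjusted p = 0.0128). For both, the e13.5 value lay outside the adult pair, below for miR-208a-3p and above for miR-208b-3p. They lie on the minus strand of chromosome 14, at chr14:54949072-54949093 and chr14:54975710-54975731 in mm10, and share the seed UAAGACG. Among the 547 tested miRNAs with a sequence, 57 seeds had at least 2 tested arms. Of these seeds UAAGACG alone had calls in both directions, and 12 had at least 2 arms called the same way. Arms without a sequence were not covered, so other opposite pairs with a shared seed could be missed. This pair was picked out after its values were seen.

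The other strand, miR-208a-5p, had 1 count at e13.5 against 19580 and 7297 in the adults, so its level was 4729 times higher in adults (95% counting interval 849 to 186806). Its called fold (edgeR adjusted p = 8.87e-09) rests on that 1 count for its size. The 5p arm of miR-208a made up 2.94% of the 34 reads of both arms at e13.5, and 92.2% and 82.6% in the adults. miR-499-5p, whose host is another myosin gene, stood at 1241 against 3773 and 12622 (log2 fold −2.72, SE 1.11, edgeR adjusted p = 0.0399), below both adults. The calls of miR-208a-3p and miR-499-5p were not kept under library totals, at log2 folds of −3.04 and −1.48. miR-1a-1-5p and miR-499-3p had 0 counts at e13.5 and were at least 20.3-fold and 12.6-fold higher in adults, with 3 counts taken as the floor at e13.5, and neither call was kept with library totals.

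The miR-29 family was lower at e13.5 in 6 of its 7 tested arms, with a median log2 fold of −6.07 (3 of the 6 calls were kept under every scaling). At e13.5, 5 of the 7 arms had under 10 counts, too few to enter the test without adult counts. The family took 0.00704% of counts at e13.5 (Wilson interval 0.006100 to 0.008116) and 1.72% ± 0.265 (SD, n = 2) in adults. miR-29a-3p stood at 34.96 at e13.5 and at 18325 and 23807 in the adults (log2 fold −9.23, SE 1.57, edgeR adjusted p = 1.47e-07). miR-29c-3p had 6 counts at e13.5 against 7128 and 13905, a level 617 times higher in adults (95% counting interval 283 to 1681), and miR-29b-3p had 7 counts against 1024 and 1654. The 3 main arms differ from each other only after the seed, as the sequences show. Summed over the arms with the seed AGCACCA, the level was 37.9 at e13.5 and 18892 and 25269 in the adults. Mir29a (miR-29a-3p at chr6:31062673-31062694, minus strand) and Mir29c (miR-29c-3p at chr1:195037600-195037621, plus strand) are separate loci, and both were lower.

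Known as repressors of the cell cycle, the miRNAs of the miR-15/16 family were lower in 5 of 10 tested arms and higher in none. Its median log2 fold was −5.04, or −3.34 with the arm at 0 counts in a stage set to its bound. At e13.5, 4 of the 10 arms had under 10 counts, too few to enter the test without adult counts. miR-16-5p stood at 115 at e13.5 and at 5689 and 8625 in the adults (log2 fold −5.96, SE 1.33, edgeR adjusted p = 7.72e-05). miR-15a-5p, from the same transcript, stood at 4.99 against 188 and 477. miR-195a-5p had 2 counts at e13.5 against 4678 and 8620, so its level was 1170 times higher in adults (95% counting interval 324 to 9662). Its neighbour miR-497a-5p had 5 counts against 2323 and 5068. The 2 strands come from neighbouring hairpins, miR-497a-5p at chr11:70234730-70234751 and miR-195a-5p at chr11:70235062-70235082, both on the plus strand. The family held 0.0364% of counts at e13.5 (0.03416 to 0.03874) and 0.682% ± 0.0308 (SD, n = 2) in adults. Members of this family, of let-7, miR-30 and miR-378 can share reads where they are near-identical, so the split among members is uncertain.

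The X-linked miR-322 cluster, whose miR-322-5p carries the same seed as miR-16-5p, was close to empty at both stages for its proximal hairpins. miR-322-5p had 1, 47 and 0 counts in the e13.5 library and the adult replicates, miR-503-5p had 6, 7 and 0, and miR-351-5p had 1, 0 and 0. The 3p arms of these 3 hairpins had 0 counts in every knockout library, so no stage difference could be measured there. Of the 8 tested arms of the list 2 were higher and 1 was lower, with a median log2 fold of −2.31 (−2.17 with the arm at 0 counts in a stage set to its bound). All 3 calls came from the distal hairpins. miR-542-3p stood at 3376 at e13.5 and at 9.10 and 196 in the adults (log2 fold 5.04, SE 0.98, edgeR adjusted p = 5.62e-06). miR-450b-5p was also higher, at 169 against 2.01 and 27.6. Both adult replicates lay below e13.5 but far from each other. miR-542-5p was lower, at 2.72 against 35.4 and 57.5 (log2 fold −4.09, SE 1.49, edgeR adjusted p = 0.0196). The 3p arm miR-450b-3p stood at 19.7 against 30.6 and 137 without passing. miR-450a-5p stood at 1050 against 105 and 1116 and did not pass (log2 fold 0.78), since adult replicate 2 reached the e13.5 level.

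Among further families abundant in the adults, miR-30 and miR-378 had lower calls, fewer of which were kept under library totals. Of 11 tested miR-30 arms 6 were lower and none higher (median −2.66), and 1 call was kept with library totals. miR-30b-5p stood at 40.6 against 1886 and 5089 (log2 fold −6.42, SE 1.36, edgeR adjusted p = 3.00e-05), whereas miR-30a-5p, the most abundant member in the adults, stood at 19127 against 39991 and 112541 and did not pass (edgeR adjusted p = 0.144). Of 5 tested arms of the miR-378 family, whose miR-378a lies in an intron of the mitochondrial regulator Ppargc1b, 4 were lower (median −3.88), and 2 calls were kept with library totals. The main arm miR-378a-3p stood at 14891 against 80096 and 47752 and did not pass (edgeR adjusted p = 0.125), while miR-378b stood at 10.4 against 1900 and 1551. In the miR-26 and miR-101 families 1 of 8 arms was lower, miR-26b-5p at 270 against 7047 and 11654, a share near that of all tested miRNAs. miR-101b-3p stood at 898 at e13.5, above both adults at 91.7 and 535, and did not pass (edgeR adjusted p = 0.202).

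The let-7 family, known for its rise as animals mature, was not uniformly lower in these knockouts. Of 19 tested arms 3 were lower and none higher, a share of lower calls near the 13.7% of all tested miRNAs, with a median log2 fold of −1.70. With upper-quartile factors 7 were lower, and with library totals 2. The 3 were passenger strands, among them let-7i-3p, with 8 counts at e13.5 against 1804 and 920. At e13.5, 3 of the 19 arms, let-7i-3p included, had under 10 counts, too few to enter the test without adult counts. The guide strands did not pass. let-7i-5p stood at 26362 at e13.5, above both adults at 12701 and 7496 (log2 fold 1.38, edgeR adjusted p = 0.238), whereas let-7a-5p stood at 4263 against 13460 and 3859. The family as a whole held 8.55% of counts at e13.5 (8.518 to 8.585) and 8.80% and 4.09% in the adults, so by share e13.5 lay between them. After TMM scaling the family stood at 51865.4 at e13.5, below both adults at 87706.5 and 67626.7. Of the 19 arms 2 had a log2 fold above 0.

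Of 22 tested arms of miRNAs linked to cardiac stress and hypertrophy, 8 were lower at e13.5 and 1 was higher (median −2.31). The higher one was miR-21a-5p, at 115201 against 4099 and 18062 (log2 fold 3.38, SE 0.96, edgeR adjusted p = 0.00230). It lay above both adults, with log2 folds of 4.81 and 2.67 against the separate replicates. Lower ones included miR-23a-3p, at 196 against 16234 and 21127 (log2 fold −6.58, SE 1.39, edgeR adjusted p = 2.66e-05). Of the same clusters, miR-24-3p was lower at 1187 against 27904 and 30530. miR-195a-5p, described with the miR-15/16 family, is a member of this list too. At e13.5, 5 of the 22 arms, miR-195a-5p included, had under 10 counts, too few to enter the test without adult counts.

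Many imprinted miRNAs stood higher at e13.5. In the Dlk1-Dio3 cluster, expressed from the maternal chromosome 12, 50 of 71 tested arms were higher and none was lower, against 22.6% higher among all tested, with a median log2 fold of 5.26 (5.09 with the 12 arms at 0 counts in a stage set to their bound). Of the 71, 25 had under 10 counts in each adult library and so could enter the test through e13.5 alone. The cluster has 107 rows in the table, 19 of them empty in all 3 libraries. It held 4.17% of counts at e13.5 (Wilson interval 4.146 to 4.194) and 0.0299% ± 0.00151 (SD, n = 2) in adults. Higher calls numbered 51 with library totals and 48 with upper-quartile factors.

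The most abundant member at e13.5 was miR-127-3p, at 6649 against 71.8 and 114 (log2 fold 6.16, SE 1.02, edgeR adjusted p = 7.48e-08). It lies antisense to the retrotransposon-derived gene Rtl1. miR-541-5p stood at 5839 against 17.1 and 19.3 (log2 fold 8.33, SE 1.11, edgeR adjusted p = 2.87e-11). From a hairpin between these loci, miR-370-3p stood at 925 against 2.01 and 1.69 (log2 fold 8.95, SE 1.18, edgeR adjusted p = 2.21e-11). In each case the adults were close to each other and far below e13.5. miR-379-5p, the first hairpin of the distal group, stood at 3268 against 45.1 and 76.2. miR-770-3p had 140 counts at e13.5 and 0 in both adults, at least 265-fold higher with 3 counts over the adult pair as the floor.

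By position, hairpins no more than 10000 bp from the next on the same strand were joined. Only tested arms with a sequence at a single locus were used. The largest such group, chr12:109709065-109747949 on the plus strand, held 31 hairpins and 46 tested arms, of which 31 were higher and none lower. Upstream of it, chr12:109611556-109618326 held Mir341, Mir1188 and Mir370, and all 4 of their tested arms were higher. Of these arms, miR-1188-5p and miR-370-5p had 0 counts in both adults and so could enter the test only through e13.5. Further upstream, chr12:109563744-109595387 held 11 hairpins and 18 tested arms, of which 14 were higher and none lower. Of 82 tested arms on chromosome 12, 50 were higher, which is 61.0%. Sequence records on chromosome 18 were left out, so the groups do not cover the whole genome. In all, with these chromosome 12 groups included, 40 groups had at least 2 hairpins: 28 had calls in a single direction, 2 in both directions and 10 none.

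Both strands of miR-483, which lies in an intron of the growth factor gene Igf2, were higher at e13.5. miR-483-5p had 922 counts at e13.5 and 0 in both adults, at least 1747-fold higher with 3 counts over the adult pair as the floor. miR-483-3p stood at 349 against 1.46 and 1.03 (log2 fold 8.11, SE 1.19, edgeR adjusted p = 1.30e-09). miR-675-5p, processed from the imprinted RNA H19, had 66 counts against 0 and 0, at least 125-fold higher. These 3 were all the tested arms of the H19/Igf2 list, and all were higher. Of them, miR-483-5p and miR-675-5p had 0 counts in both adults and so could enter the test only through e13.5. miR-335-3p, from the imprinted gene Mest, stood at 3281 against 38.4 and 64.7 (log2 fold 5.99, SE 1.02, edgeR adjusted p = 1.47e-07). The other arm, miR-335-5p, stood at 194 between the adults at 123 and 247 and did not pass (log2 fold 0.07, edgeR adjusted p = 0.968). The 5p arm thus made up 5.59% of the reads of both arms at e13.5 (Wilson interval 5.233 to 5.960) and 76.2% and 79.2% in the adults.

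Of the miR-290 and miR-302 clusters, known from pluripotent cells, 7 of 28 arms could be tested and 5 were higher, at low levels. miR-302a-5p had 107 counts at e13.5 and 0 in both adults, at least 203-fold higher. miR-302b-3p had 73 counts against 0 and 3, 138 times the adult level (counting interval 45.5 to 686). Fewer counts were found for miR-302d-3p, with 39 against 0 and 4. The whole list took 0.0121% of counts at e13.5 (0.01080 to 0.01344), and 6 of its 7 tested arms had under 10 counts in each adult library. In the Sfmbt2 cluster families, which are rodent-specific and hard to tell apart by sequence, 5 of 23 arms were higher and none lower, a share near that of all tested miRNAs. Under 10 counts in each adult library were found for 4 of the 23, which could enter the test through e13.5 alone. In the miR-17 cluster and its paralogs, which promote proliferation, 2 of 18 arms were higher and 1 was lower, with miR-20a-5p at 850 against 73.2 and 139 (log2 fold 3.003, SE 0.95, edgeR adjusted p = 0.00676).

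Smaller lists had mixed calls. In the list of the miR-130 and miR-148 families 2 of 13 arms were higher and 1 was lower. miR-130b-5p stood at 190 against 4.24 and 1.504 (log2 fold 6.04, SE 1.13, edgeR adjusted p = 2.02e-06). Its cluster partner miR-301b-5p had 27 counts against 0 and 0, at least 51.1-fold higher, and so could enter the test only through e13.5. miR-130a-3p was lower at 14.1 against 97.0 and 119, though not with library totals, and the abundant miR-148a-3p stood at 15058 against 2350 and 7952 and passed with library totals alone of the 4 scalings. In the miR-99/100 and miR-125 families 3 of 11 arms were higher and 1 was lower. miR-99b-5p stood at 19615 against 2103 and 1700 (log2 fold 3.37, SE 0.94, edgeR adjusted p = 0.00186), while miR-125b-5p stood at 1351 against 23111 and 16443 and was lower, though not with library totals (log2 fold −2.89). In the Clcn5-intron cluster 2 of 9 arms were higher, miR-532-5p at 4841 against 122 and 175 and miR-501-3p at 1153 against 44.3 and 26.6. Of 10 tested miR-181 arms 2 were lower and none higher. Of 4 arms of the miR-221 cluster, linked to vessels and proliferation, miR-221-3p was lower, at 16.1 against 1727 and 885. miR-34a-5p, which p53 induces and which rises in the ageing heart, stood at 8.63 against 1466 and 711 (log2 fold −6.98, SE 1.42, edgeR adjusted p = 1.44e-05), while miR-34c-5p was higher at 152.3 against 5.35 and 9.40. In the Hox-cluster list miR-10a-5p and miR-10b-5p were higher, at log2 folds of 2.21 and 2.40, and neither passed with upper-quartile factors.

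Some markers of other cell types differed between the stages and others did not, and their part in the results was not tested. Of 9 tested leukocyte arms 4 were lower at e13.5 and none higher (median −3.02), with the list at 495 at e13.5 and at 2864 and 3077 in the adults. miR-223-3p, a myeloid miRNA, stood at 4.54 against 814 and 447, and miR-150-5p, a lymphocyte miRNA, at 13.6 against 736 and 859. The other arm of the first, miR-223-5p, did not pass (log2 fold 0.34, edgeR adjusted p = 0.884). Most of the list at e13.5 was miR-146b-5p, at 378 against 68.8 and 147, which did not pass (log2 fold 1.81, edgeR adjusted p = 0.133) but was higher with library totals. Of 5 tested erythroid arms miR-451a was higher, at 4577 against 400 and 74.6 (log2 fold 4.27, SE 0.95, edgeR adjusted p = 7.72e-05). miR-486a-5p of the same list did not pass, at 4016 against 21322 and 9117, and the list as a whole took 1.43% of counts at e13.5 and 2.23% and 0.565% in the adults. After TMM scaling the list stood at 8686 at e13.5, below both adults at 22199 and 9352. Adult replicate 1 held more of miR-451a and of miR-486a-5p than replicate 2.

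Of 10 smooth muscle and fibroblast arms 2 were lower and none higher (median −0.66, but 0.36 with library totals), although the list took 21.5% of counts at e13.5 (21.44 to 21.54) and 9.30% ± 0.895 (SD, n = 2) in adults. After TMM scaling the list stood at 130314 at e13.5, between the adults at 86376 and 164408. miR-143-3p made up most of it, at 127796 against 78011 and 154475, and did not pass (edgeR adjusted p = 0.932). Its partner in the cluster, miR-145a-5p, was lower, at 454 against 5625 and 5036 (log2 fold −3.55, SE 1.16, edgeR adjusted p = 0.00844), a call that was not kept with library totals (log2 fold −2.54). Of 2 tested endothelial arms, miR-126a-5p was lower, at 597 against 1884 and 7591 (log2 fold −2.99, SE 1.12, edgeR adjusted p = 0.0241), though not with library totals. The more abundant arm miR-126a-3p stood at 9315 against 14546 and 43827 and did not pass, and miR-126b-5p was at 0 in all 3 libraries.

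Of 9 tested epithelial arms 5 were higher and none lower (median 5.18), with the list at 1358 at e13.5 and at 184 and 434 in the adults. miR-200b-3p stood at 915 against 1.04 and 8.46 (log2 fold 7.60, SE 1.12, edgeR adjusted p = 1.37e-09). The same seed is carried by miR-429-3p, which had 145 counts against 0 and 13. miR-205-5p had 212 counts against 0 and 10. In the adults most of the list was miR-203-3p, which stood at 72.4 at e13.5 against 142 and 391 and did not pass (log2 fold −1.88, edgeR adjusted p = 0.175). All 4 tested arms of the Mir429, Mir200a and Mir200b group, chr4:156053916-156055706 on the minus strand, were higher. Of these arms, miR-200a-5p had 108 counts against 0 and 0 and so could enter the test only through e13.5. miR-200c-5p, miR-205-3p and miR-429-5p were at 0 in all 3 libraries. Of 8 tested neuronal arms 2 were higher and 1 was lower, with miR-218-5p, which also has a role in the developing heart, at 1772 against 121 and 235. Among 4 liver and gut arms, miR-122-5p, the main liver miRNA, was higher at 116 against 3.82 and 0.752, and miR-194-5p was lower at 10.4 against 297 and 694. Both calls were kept under every scaling.

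Hairpin arms did not always differ together. Of 171 hairpins with both arms tested, 29 had both called in the same direction, 4 in opposite directions, 64 had 1 arm called and 74 none. For miR-151 the 5p arm made up 0.204% of the reads of both arms at e13.5 (Wilson interval 0.1513 to 0.2742) and 75.7% and 80.8% in the adults. miR-151-5p stood at 9.76 against 2265 and 2685, and miR-151-3p at 4782 against 727 and 638. For miR-455 the 5p arm made up 93.7% at e13.5 (91.78 to 95.15) and 2.91% and 4.35% in the adults. The adults lay close together in both hairpins and on the other side of the even split from e13.5.

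The other opposite pairs were less clear. For miR-542 the 5p arm made up 0.0806% at e13.5 (0.04612 to 0.1409) but 79.6% and 22.7% in the adults, which lie 56.9 percentage points apart. miR-20a-3p had 0 counts at e13.5 against 109 and 61, while miR-20a-5p was higher, and the 5p arm held 100% of the reads of both arms at e13.5 and 90.6% and 96.0% in the adults. With library totals the calls of miR-20a-3p, miR-455-3p and miR-542-5p were not kept. Over 98 hairpins with at least 100 counts in each library, the 5p share differed by over 50 points between e13.5 and the adult mean in 11 and between the adults in 2, with medians of 5.01 and 1.85 points.

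The knockout stage difference was then set beside that in the wild-type libraries, again 1 at e13.5 and 2 adult, in a fit of all 6. No miRNA of 769 passed the test of the difference between the stage folds (edgeR interaction, adjusted p under 0.05, 0%), and 46 had an unadjusted p under 0.05. DESeq2 called 4 and limma-voom 0. The count rests on the adult knockout replicates: without replicate 1 it was 87 and without replicate 2 it was 40, where the spread comes from the wild-type adults alone. With either of the adult wild-type libraries left out it was 0. Across the 637 miRNAs the stage folds of the genotypes had a Pearson correlation of 0.85 and a Spearman correlation of 0.86, a description over miRNAs that share libraries within each genotype.

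Of the 231 called miRNAs 227 had a fold of the same sign in wild types. The 4 others were miR-147-3p, miR-712-5p, miR-760-3p and miR-99b-5p, all higher at e13.5 in knockouts, and named because of their number, after their values were seen. miR-99b-5p had a wild-type log2 fold of −0.32 against 2.90 in knockouts in the same fit, a difference of 3.22 (edgeR interaction adjusted p = 0.377, unadjusted p = 0.00245). The plot of both stage folds shows these 4 among points that follow the diagonal.

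**Figure D5:**
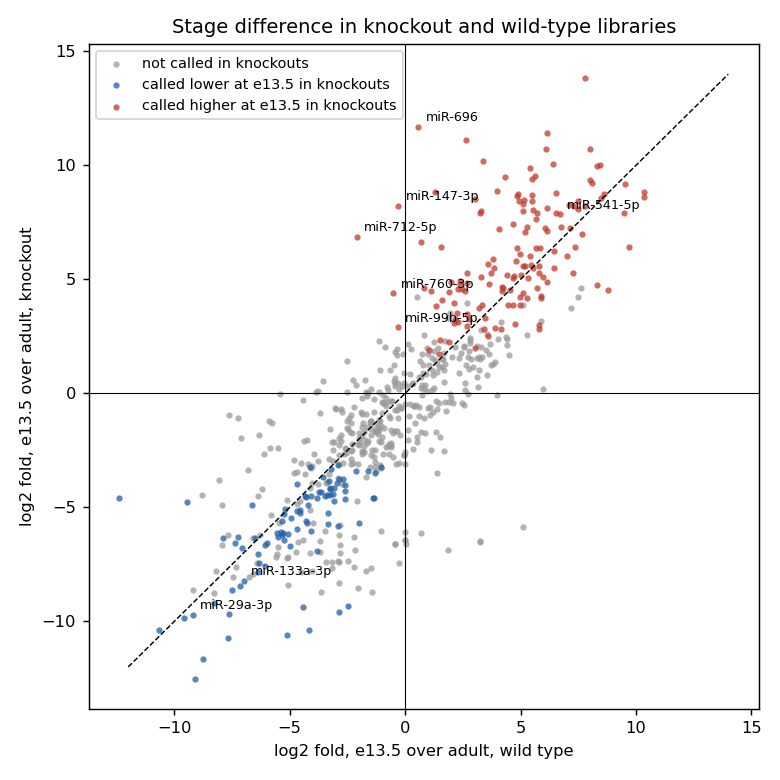
Log2 fold, e13.5 over adult, in wild-type libraries (x axis) and in knockout libraries (y axis) for the 637 miRNAs tested in knockouts, both from 1 edgeR fit of all 6 libraries, coloured by the call in knockouts. Of the 231 called miRNAs 227 lie in the quadrants of equal sign.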

How the data were processed

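Small RNA libraries were prepared with the NEXTFLEX kit from DNase-treated total RNA, per the labels' protocols. The deposited table gives raw read counts for each hairpin and mature miRNA, 1 column per library. Per the submitters' processing notes the build was mm10. Not given in the sources used here are the aligner, the counter, the trimming and how reads with several matches were counted. Hairpin rows (1234) repeat the reads of their arms and were left out. Rows that agreed within 1% over all 6 libraries, with a total of 20 or more and counts in 3 libraries or more, were treated as the same reads and merged. All columns belonged to the samples described (0 others).

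The stage test used edgeR 4.0.16 under R 4.3.3 (quasi-likelihood, two-sided) after TMM scaling (factors 1.65 for e13.5, 1.00 and 0.604 for the adults) and a filterByExpr filter (minimum count 10). The threshold was an adjusted p (Benjamini-Hochberg) of 0.05. With 1 residual degree of freedom the prior degrees of freedom were infinite, so every miRNA took the pooled spread, a biological coefficient of variation of 0.726. The interaction fit had 2 residual degrees of freedom and a coefficient of 0.628. DESeq2 1.42.0, limma 3.58.1 (voom), other scalings, filters, GC offsets, seed sums and hairpin counts were alternatives. The members and lists were chosen with earlier results of these data known, and no list was tested as a set. Named miRNAs were the 12 largest called folds each way, where the mean scaled CPM over the 2 stage means was at least 100. Also named were the 10 most abundant per stage, and in each list the 3 most abundant and 4 largest called members. Arms of the X-linked cluster, hairpins with opposite arms, and the 5 highest counts in a single stage were named as well.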

Additional observations from a re-analysis of the deposited data

How the results depend on the processing

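No paired analysis was possible because embryos and adults are different animals. Of the 231 stage calls, counts ran from 188 with library totals to 256 with GC offsets over the alternatives by single mature miRNA, with 154 over hairpins and 142 over seed sums, where fewer features were tested (551 and 462). The count of miRNAs at least 4-fold apart from the adults, 312, became 234 at 8-fold and ran from 384 to 397 with an adult library left out. The interaction count of 0 became 1 with library totals, 4 with DESeq2 and 2 without a filter, and ran from 0 to 87 with an adult library left out. The cause was not tested. Of 99 named miRNAs that were tested, 82 were called, and none of these changed sign under any alternative. Leaving out adult replicate 1 moved 38 of the 99 folds by more than the SD of the adult pair without a change of sign and reversed 4, and leaving out replicate 2 moved 20. Among the uncalled, miR-143-3p went from 0.14 to −0.29 with upper-quartile factors and ran from −0.48 without adult replicate 1 to 0.71 without replicate 2. In the same order miR-450a-5p (0.78 with both) gave −0.29 and 3.32, miR-335-5p (0.07 with both, −0.35 with upper-quartile factors) gave −0.55 and 0.66, and miR-322-5p (−2.79 with both) gave 3.74 and −3.77. With library totals 12 of the 82 calls were lost. Leaving out an adult library leaves no residual degree of freedom in the stage fit, so those folds carry no test. Depth limits the e13.5 side: 3 counts there equal 0.681 scaled CPM, against 0.208 and 0.282 in the adults, so a miRNA absent at e13.5 was bounded less tightly than one absent in adults.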

Other observations

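Of the tested miRNAs, 312 belonged to none of the lists, and 55 of these were higher and 30 lower at e13.5, against 22.6% and 13.7% of all tested. They were picked for this paragraph after their values were seen. miR-7a-5p, abundant in neurons and endocrine cells, had 4727 scaled CPM at e13.5 and 110 and 74.9 in the adults (log2 fold 5.68, SE 1.001, edgeR adjusted p = 4.02e-07). miR-1981-5p stood at 1141 against 1.81 and 2.91 (log2 fold 8.92, SE 1.17, edgeR adjusted p = 2.21e-11). From the imprinted Gnas region, miR-298-5p stood at 334 against 0 and 1.22. The sensory miRNAs miR-183-5p and miR-182-5p, from neighbouring hairpins, stood at 855 against 6.599 and 1.32 and at 1030 against 11.1 and 6.67. miR-7a-5p, miR-1981-5p, miR-298-5p, miR-183-5p and miR-182-5p were all above both adults, and all 5 were higher under every scaling.

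The lower miRNAs outside the lists included the muscle-expressed miR-23b-3p and miR-27a-3p, which belong to the same 2 clusters as miR-24-3p. miR-23b-3p stood at 258 against 14349 and 13542 (log2 fold −5.76, SE 1.32, edgeR adjusted p = 0.000128). The level of miR-27a-3p was 235 against 5820 and 7113 (log2 fold −4.78, SE 1.25, edgeR adjusted p = 0.000834). miR-149-5p stood at 202 against 6296 and 3613 (log2 fold −4.62, SE 1.23, edgeR adjusted p = 0.00112). In each the adults lay within 2-fold of each other and above e13.5, and each was lower under every scaling.

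With at least 10 counts in 1 stage and 0 in the other, 37 miRNAs were found at e13.5 alone and 91 in adults alone. The adult libraries were deeper, and the part of depth in these counts was not tested. With 3 counts as the floor, the lowest bound was 20.8-fold among those at e13.5 alone and 0.587-fold among those in adults alone. A bound under 1 does not show a higher level in adults, so the 2 counts cannot be compared directly. After miR-483-5p, the highest counts at e13.5 alone were 210 for miR-696, at least 398-fold higher than the adult floor, and 172 for miR-3081-3p, at least 326-fold higher. In adults alone they were 662 and 224 counts in the replicates for miR-1249-3p, at least 52.0-fold higher than the e13.5 floor, and 123 and 244 for miR-511-3p, a macrophage miRNA, at least 21.5-fold higher.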
